A study of Mus musculus with 54 samples.

Results

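Macrophages clear dead cells by efferocytosis, the uptake of apoptotic cells, and take up modified lipoproteins, proteins and bacteria through scavenger receptors. The report covers 10 genes of these functions, chosen by name from the 33280 gene symbols counted: the receptor tyrosine kinase gene Mertk and its bridging ligand genes Gas6 and Pros1, the phosphatidylserine receptor gene Timd4, and the scavenger receptor genes Stab1, Msr1, Marco, Cd36, Colec12 and Scarb1. All 10 symbols were found in the count tables, and all 10 passed the low-count filter in the sdCAM comparisons, while 8 passed it in the comparisons among microglia, where Colec12 and Timd4 were too low to test. The genes were followed by cell type, after lipopolysaccharide (LPS, a bacterial endotoxin) and after depletion and repopulation.

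RNA was sequenced from 54 libraries of sorted mouse brain macrophages in 18 groups of 3. The cells were microglia (MG) and subdural CNS-associated macrophages, or sdCAMs, which are CD206+ and line the leptomeninges and brain vessels. Both were sorted from brains without choroid plexus of wild-type (WT, C57BL/6JCrl) and Ccr2-/- mice. In both genotypes the groups were untreated mice given PBS, mice given vehicle (CTL) and then LPS, and mice given BLZ945 and then LPS. BLZ945 inhibits the CSF1 receptor and depletes these macrophages, which then return. The third set came from reporter mice labelled Ccr2CreERT2/CreERT2:R26tdT/tdT, in which Cre driven from the Ccr2 locus turns on tdTomato (tdT) after tamoxifen. All of these mice had received BLZ945 and then LPS or PBS, and their sdCAMs were sorted as tdT+ and tdT-. Cells were sorted 12 h after LPS or PBS, which followed BLZ945 or vehicle by 8 weeks.

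The design set limits on what each comparison could separate. Mice given LPS without BLZ945 had also received vehicle, and untreated mice had not, so these cannot be told apart. Reporter mice had no group without BLZ945. A tdT+ cell descends from a cell with an active Ccr2 promoter at the time of tamoxifen, and a tdT- cell may descend from any other cell or from one that escaped labelling. CD206, encoded by Mrc1, was the sort gate for sdCAMs, so sdCAMs low in it were not collected. The labels put WT and Ccr2-/- libraries in one batch and reporter libraries in another. The paper's methods, however, name a batch correction of the WT and Ccr2-/- data, without saying which libraries formed its batches. Levels are therefore compared within a genotype.

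Phosphatidylserine on the surface of a dying cell is the main signal for engulfment. TIM-4, encoded by Timd4, and stabilin-1, encoded by Stab1, can bind it directly, whereas MerTK recognises it through the bridging proteins GAS6 and protein S, encoded by Gas6 and Pros1. The class A scavenger receptors SR-A1 (Msr1), MARCO (Marco) and SRCL (Colec12) and the class B receptors CD36 (Cd36) and SR-BI (Scarb1) bind modified lipoproteins and other polyanionic or lipid ligands, and TIM-4 is widely used as a marker of long-lived resident macrophages.

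Promoter sequences of 7 of the 10 genes were taken from RefSeq for mouse build GRCm38.p6, and 3 of those sequences are printed. Marco is shown because it was nearly undetected without LPS and was found after it, Stab1 because its change with LPS differed between the cell types, and Gas6 because it had the largest fitted loss of the 10 after LPS in sdCAMs. Each line gives the 250 bases before the RefSeq start on the minus strand, read 5′ to 3′. Capitals mark GAGGAA, the core of sites bound by the macrophage factor PU.1.
Marco, chr1:120505025-120505274: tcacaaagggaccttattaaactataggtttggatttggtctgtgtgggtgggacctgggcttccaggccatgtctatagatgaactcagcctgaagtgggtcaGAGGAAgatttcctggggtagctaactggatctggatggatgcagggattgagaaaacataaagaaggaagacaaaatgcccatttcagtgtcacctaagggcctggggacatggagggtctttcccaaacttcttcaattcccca
Stab1, chr14:31168642-31168891: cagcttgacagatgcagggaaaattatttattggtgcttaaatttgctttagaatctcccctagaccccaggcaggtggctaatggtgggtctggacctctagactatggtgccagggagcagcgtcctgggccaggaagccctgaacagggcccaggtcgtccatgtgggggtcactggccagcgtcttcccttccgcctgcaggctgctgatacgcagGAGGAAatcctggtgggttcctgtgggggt
Gas6, chr8:13494536-13494785: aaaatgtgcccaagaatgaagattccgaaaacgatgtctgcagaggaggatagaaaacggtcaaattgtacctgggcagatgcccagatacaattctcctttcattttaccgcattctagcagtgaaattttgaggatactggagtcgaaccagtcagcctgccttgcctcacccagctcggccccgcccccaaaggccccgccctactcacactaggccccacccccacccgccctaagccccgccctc

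The windows of Marco and Stab1 each held 1 match to GAGGAA on either strand, 146 bases before the start in Marco and 30 in Stab1, and the windows of Gas6, Mertk, Pros1, Cd36 and Timd4 held none. Of 32851 promoters of the same length, 23.3% held a match. The NF-kappaB pattern (found in 7.25% of promoters), the AP-1 pattern TGANTCA (6.75%) and the interferon-response pattern of GAAA and GAAA spaced by 2 bases (2.98%), searched on both strands, had no match in these 7 windows. A match is a description of letters and says nothing of binding. The files gave no coordinates, and which mouse build the authors used is not clear from the labels, so positions here are those of RefSeq only.

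Libraries held 1705930 to 11330781 counts in genes. Levels are given as CPM, the counts per 1000000 counts of a library whose total was scaled by TMM (trimmed mean of M values), because a few genes took a large share of some sdCAM libraries. In WT sdCAMs after CTL and LPS the 10 most abundant genes held 43.6% to 53.3% of counts, with Saa3, an acute-phase serum amyloid gene, alone at 23.0% to 35.8%, against at most 0.167% in untreated WT sdCAMs. Saa3 held 1.79% to 21.0% in WT sdCAMs after BLZ945 and LPS, 5.88% to 7.55% in Ccr2-/- sdCAMs after LPS, 14.5% to 28.3% in tdT- and 0.680% to 2.74% in tdT+ sdCAMs after LPS. Ccr2 itself was at 16 to 61 counts in Ccr2-/- libraries and 0 to 131 in WT libraries, which differed in depth. In untreated sdCAMs it was at 17.03 to 50.99 CPM in WT and 2.33 to 5.21 CPM in Ccr2-/- mice, without overlap. In untreated MG the genotypes overlapped (3.08 to 8.53 and 4.71 to 6.48 CPM). In sdCAMs after CTL and LPS the order was reversed (0 to 0.755 CPM in WT and 3.05 to 5.48 CPM in Ccr2-/-). Ccr2 thus went with the genotype labels in untreated sdCAMs and did not check them in MG or after LPS.

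The 2 cell types were separated by their own markers in all but 1 library. Summed over 8 sdCAM markers, the level was at most 148 CPM in MG libraries and at least 876 CPM in sdCAM libraries. The sum of 8 microglial markers in sdCAM libraries was 2.89% to 36.2% of the sum in the mouse's own MG, with the exception of the tdT+ library of mouse 5 after LPS at 84.2%. A pair of reporter columns after LPS, tdT- of mouse 1 and tdT+ of mouse 7, carried each other's sequencing index number when set beside the labels. With these 2 libraries left out, 8 of the 9 members called for LPS in reporter sdCAMs stayed called, and values without them are given beside the results they changed. Markers of choroid plexus epithelium, Ttr and Folr1, summed to 1891, 492 and 13.8 CPM in WT sdCAMs of mice 1, 4 and 6 after CTL and LPS and to at most 146 CPM in all other sdCAM libraries. In bulk samples, fewer cells of a type and less RNA per cell cannot be told apart. Libraries of a group carried different mouse numbers, and p-values measure the spread between libraries. MG and sdCAM libraries, or tdT+ and tdT- libraries, of 1 mouse entered the main fits as separate libraries, without a mouse term. With counts summed per mouse, 8 members were called for LPS in reporter sdCAMs by edgeR.

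Without LPS, 6 of the 10 genes were higher in WT sdCAMs than in MG, against 11.9% of the 13136 genes tested, and 2 were lower, against 5.27%. The higher genes were Gas6, Msr1, Cd36, Stab1, Colec12 and Timd4, and the lower genes were Mertk and Pros1. In Ccr2-/- mice the same 6 were higher (8.48% of all genes tested) and Mertk was lower (6.38%), and in repopulated reporter mice given PBS the same 6 were higher (6.09%) and Mertk was lower (4.97%). The median log2 fold change of the 10 genes was 2.28 in WT, 5.15 in Ccr2-/- and 2.95 in reporter mice, against 0.03, 0.00 and 0.09 over all genes tested. The 10 genes were chosen with earlier results of these data known. Shares and medians over all genes are therefore given here and below for reference, not as a test of the set. A gene was called when edgeR's quasi-likelihood test gave a Benjamini-Hochberg adjusted p under 0.05 and the log2 fold change exceeded 1 in size.

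**Figure D1:**
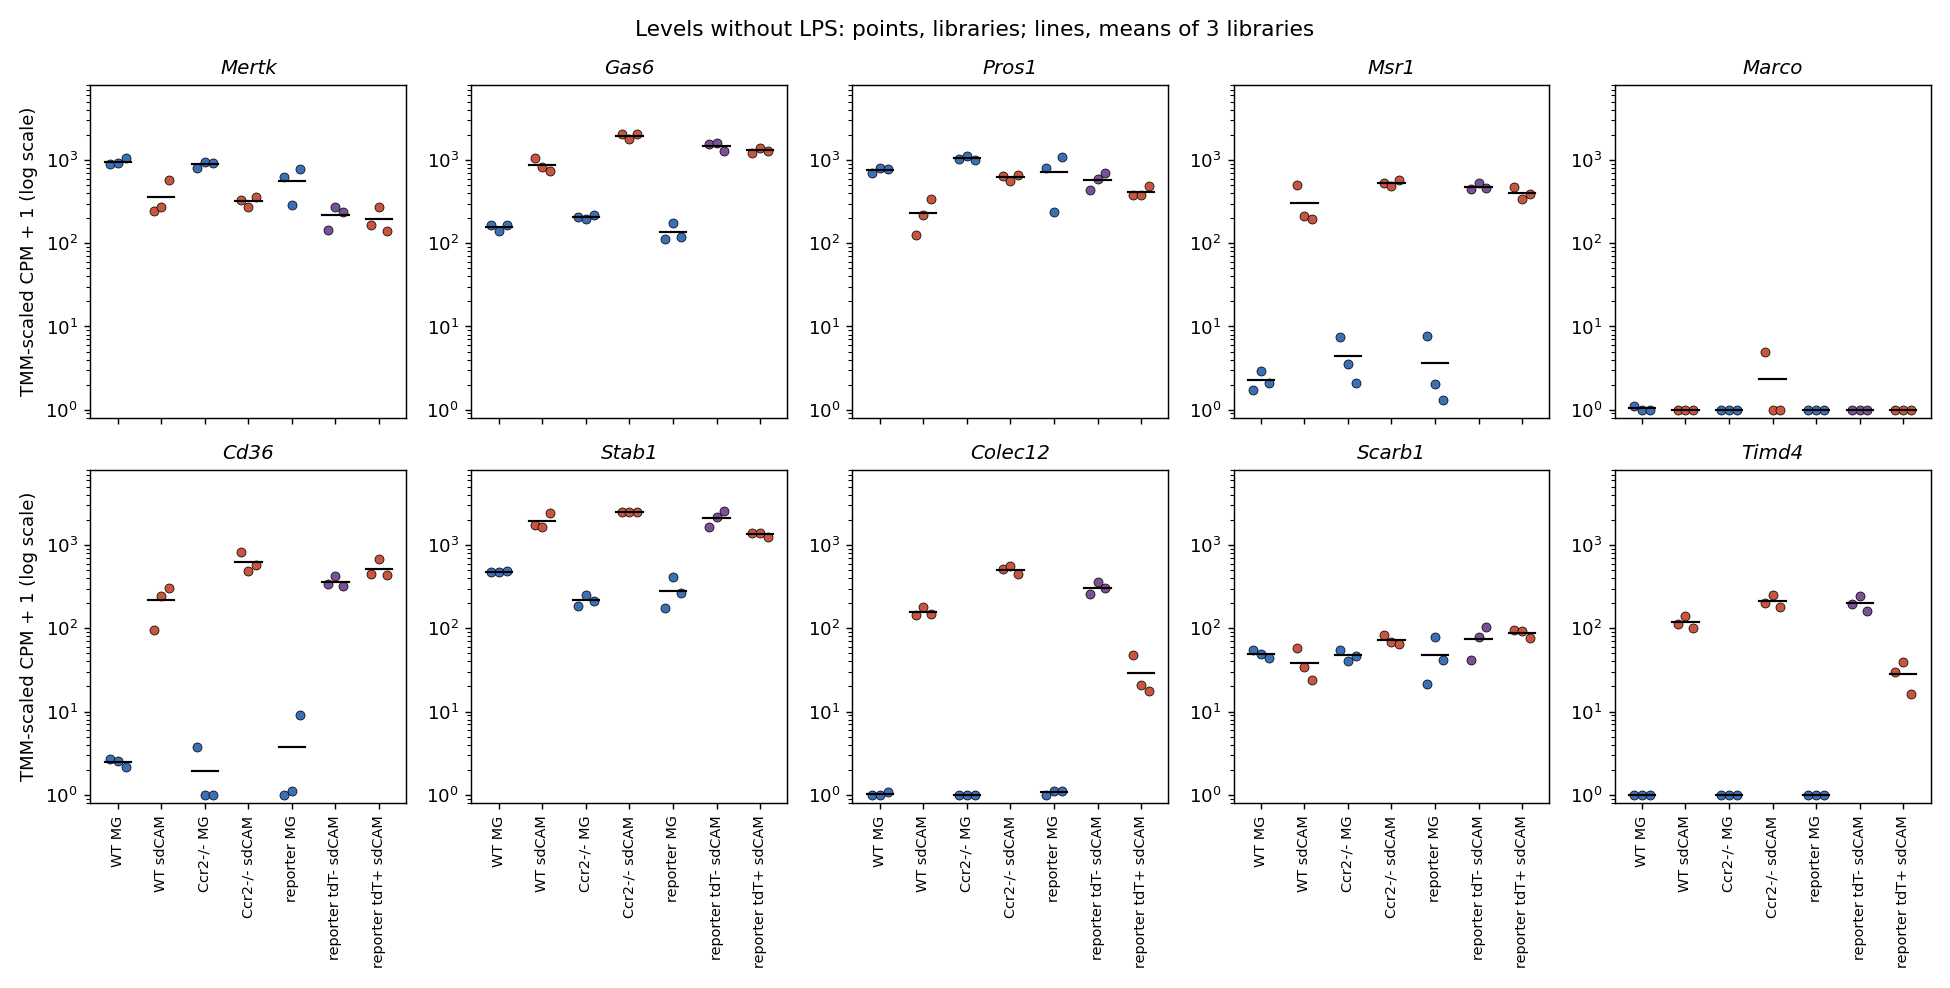
Level of each gene without LPS by group, in TMM-scaled CPM plus 1 on a log axis; points are libraries, black lines are means of 3 libraries, and colours mark MG (blue), sdCAMs and tdT+ sdCAMs (red) and tdT- sdCAMs (purple). Timd4 lay at 0 in all MG and between 15.4 and 252 in sdCAMs, and Marco was at 0 in nearly all libraries.

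Mertk, the receptor that signals engulfment, stood at 890.3, 928 and 1059 CPM in untreated WT MG and 244, 275 and 572 CPM in WT sdCAMs of the same mice. The groups did not overlap (log2 fold change -1.40 ± 0.33 SE, adjusted p = 0.00674, edgeR). The sdCAM library of mouse 15 was the highest of the 3, and it also had the largest microglial marker sum, 36.2% of its MG against 17.6% and 24.3% in the others, whose part in the result was not tested. In Ccr2-/- mice Mertk was at 898 ± 75.1 CPM (SD, n = 3) in MG and 320.3 ± 48 CPM in sdCAMs (log2 fold change -1.49 ± 0.15 SE, adjusted p = 2.16e-07, edgeR). In reporter mice MG held 628, 287 and 773 CPM, and tdT+ and tdT- sdCAMs lay between 139.9 and 275 CPM, so that 1 MG library stood close to the sdCAMs (log2 fold change -1.48 ± 0.36 SE, adjusted p = 0.00938, edgeR). Without MG of mouse 177 this call was lost (-1.16, adjusted p = 0.0731, edgeR).

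The bridging ligands were split between the cell types. Gas6 was at 163, 139.9 and 164 CPM in WT MG and 1071, 831 and 735 CPM in WT sdCAMs, with every sdCAM library above every MG library (log2 fold change 2.52 ± 0.58 SE, adjusted p = 0.0067, edgeR). In Ccr2-/- mice the levels were 204, 195 and 219.9 CPM in MG and 2060.1, 1806 and 2037 CPM in sdCAMs (log2 fold change 3.25 ± 0.58 SE, adjusted p = 0.000568, edgeR), and no MG library came near the sdCAMs. Repopulated reporter sdCAMs had 1225, 1406 and 1293 CPM as tdT+ and 1559, 1591 and 1282 CPM as tdT- cells, against 112, 176 and 118 CPM in their MG (log2 fold change 3.34 ± 0.46 SE, adjusted p = 5.81e-05, edgeR). The gap between the cell types was larger than the spread of either in all 3 sets.

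Pros1, whose protein S also serves as an anticoagulant cofactor, had the opposite order. It was at 702, 797 and 776 CPM in WT MG and 125, 221 and 341 CPM in WT sdCAMs, which did not overlap (log2 fold change -1.73 ± 0.39 SE, adjusted p = 0.00584, edgeR). The difference in Ccr2-/- mice was smaller than the fold limit (1051 ± 48.2 against 625 ± 50.8 CPM, log2 fold change -0.76, adjusted p = 0.00105, edgeR). In reporter mice it did not pass edgeR's test (log2 fold change -0.56 ± 0.46 SE, adjusted p = 0.509, 95% interval -1.47 to 0.35). Reporter MG were at 239, 796 and 1100 CPM from low to high, and tdT+ and tdT- sdCAMs lay between 379 and 703 CPM. The lowest MG library thus lay below every sdCAM library, and the other MG libraries lay above. With the IEG mark of the labels as a covariate, the WT calls of Mertk and Pros1 were lost (-0.89, adjusted p = 0.0552, and -1.08, adjusted p = 0.0774, edgeR). This mark, whose meaning the labels do not explain, was carried by the untreated WT sdCAM libraries of mice 9 and 14 and not by that of mouse 15.

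Without LPS Timd4 was detected in sdCAMs and not in MG. It had 0 counts in all 9 MG libraries without LPS and was at 113, 138 and 98.8 CPM in WT sdCAMs and 203, 252 and 178 CPM in Ccr2-/- sdCAMs. Against a detection floor of 3 counts per library, the level was at least 392-fold higher in WT and at least 715-fold in Ccr2-/- sdCAMs. In reporter mice it was at least 96.1-fold higher in tdT+ and at least 699.7-fold higher in tdT- sdCAMs than in MG. Adjusted p-values from edgeR were 1.02e-07, 1.06e-08 and 2.18e-06. Stab1, encoding a receptor that binds both phosphatidylserine and modified lipoproteins, was expressed in both cell types. It was at 469.8, 469 and 491 CPM in WT MG and 1759.9, 1666 and 2444 CPM in WT sdCAMs (log2 fold change 2.05 ± 0.30 SE, adjusted p = 0.000175, edgeR), and at 182, 253 and 213 and 2502, 2495 and 2534 CPM in Ccr2-/- mice (log2 fold change 3.53 ± 0.18 SE, adjusted p = 3.54e-11, edgeR). No library of one cell type reached the other in either genotype.

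Among the class A receptors, Msr1 was near the floor in resting MG and abundant in sdCAMs. WT MG had 0.744, 1.93 and 1.08 CPM and WT sdCAMs 502, 213 and 195 CPM (log2 fold change 7.93 ± 0.72 SE, adjusted p = 7e-07, edgeR), and the corresponding Ccr2-/- libraries had 6.46, 2.57 and 1.1 CPM and 524, 490.0 and 574 CPM (log2 fold change 7.28 ± 0.48 SE, adjusted p = 2.89e-09, edgeR). Colec12, which encodes the collectin-type scavenger receptor SRCL, had 0 or 1 count in each of the 9 MG libraries without LPS. It was at 145, 180.5 and 146 CPM in WT sdCAMs and 517, 563 and 443 CPM in Ccr2-/- sdCAMs. The ratio of sdCAM to MG counts was 4778 in WT (95% counting interval 856 to 188865) and, in reporter mice, 444 for tdT+ (122 to 3670.1) and 4840.1 for tdT- sdCAMs (1339.5 to 39972). The level was at least 1721-fold higher in Ccr2-/- sdCAMs. Marco had 1 count in a single WT MG library and 38 counts in 1 Ccr2-/- sdCAM library, that of mouse 1m at 3.98 CPM, and 0 in the other 19 libraries without LPS.

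Cd36, the receptor for oxidised lipoproteins and fatty acids, was at 1.7, 1.53 and 1.17 CPM in WT MG and 94.6, 246 and 305 CPM in WT sdCAMs (log2 fold change 7.19 ± 0.75 SE, adjusted p = 3.31e-06, edgeR). Ccr2-/- sdCAMs had 817, 492 and 581 CPM, and their MG were at 0 except for mouse 1m at 2.78 CPM. That MG library also had the only neutrophil marker sum above 2 CPM among MG without LPS, at 77.5 CPM, with Ly6g and Retnlg at 0. In reporter mice given PBS, Cd36 was at 0, 0.103 and 8.05 CPM in MG from low to high. It was at 432 to 684 CPM in tdT+ and 323 to 426 CPM in tdT- sdCAMs. This was called by edgeR, while DESeq2 gave no adjusted p (log2 fold change 7.32) and so no call. Scarb1, the receptor for high-density lipoprotein, was at 48 ± 5.33 CPM in WT MG and 37.5 ± 17.2 CPM in WT sdCAMs and overlapped between cell types. The log2 fold change of Scarb1 was -0.32 (adjusted p = 0.604) in WT, 0.62 (adjusted p = 0.0983) in Ccr2-/- and 0.75 (adjusted p = 0.265) in reporter mice, none of which passed edgeR's test.

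Per kb of exon, the order of the members within untreated WT MG was Mertk (mean 221 CPM per kb), Pros1 (185), Gas6 (61.1), Stab1 (46.3) and Scarb1 (5.65), with the other 5 below 1. These 5 leading genes had library ranges that did not overlap. In untreated WT sdCAMs the order was Gas6 (345 CPM per kb), Stab1 (190.2), Mertk (83.9), Cd36 (59.9), Pros1 (56), Timd4 (53.7), Msr1 (47.8), Colec12 (18) and Scarb1 (4.41), and the ranges from Mertk to Msr1 overlapped. Ccr2-/- sdCAMs had Gas6 at 772 and Stab1 at 244 CPM per kb in the same leading places, followed by Cd36 at 176.

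After LPS, Msr1 and Marco rose and Gas6 fell in WT MG, which was 2 of 8 tested members higher, against 8.97% of all genes, and 1 lower, against 7.6%. The same 3 were called in Ccr2-/- MG, where 10.5% of genes were higher and 8.91% lower. In reporter MG Msr1 and Marco were called, against 0.607% higher, and no member was called lower, against 0.414%. These comparisons share their libraries without LPS with those of cell types above. The median log2 fold change of the 8 members was 0.40, 0.22 and 0.17 in WT, Ccr2-/- and reporter MG, and that of all genes tested was 0.02, 0.00 and 0.03.

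**Figure D2:**
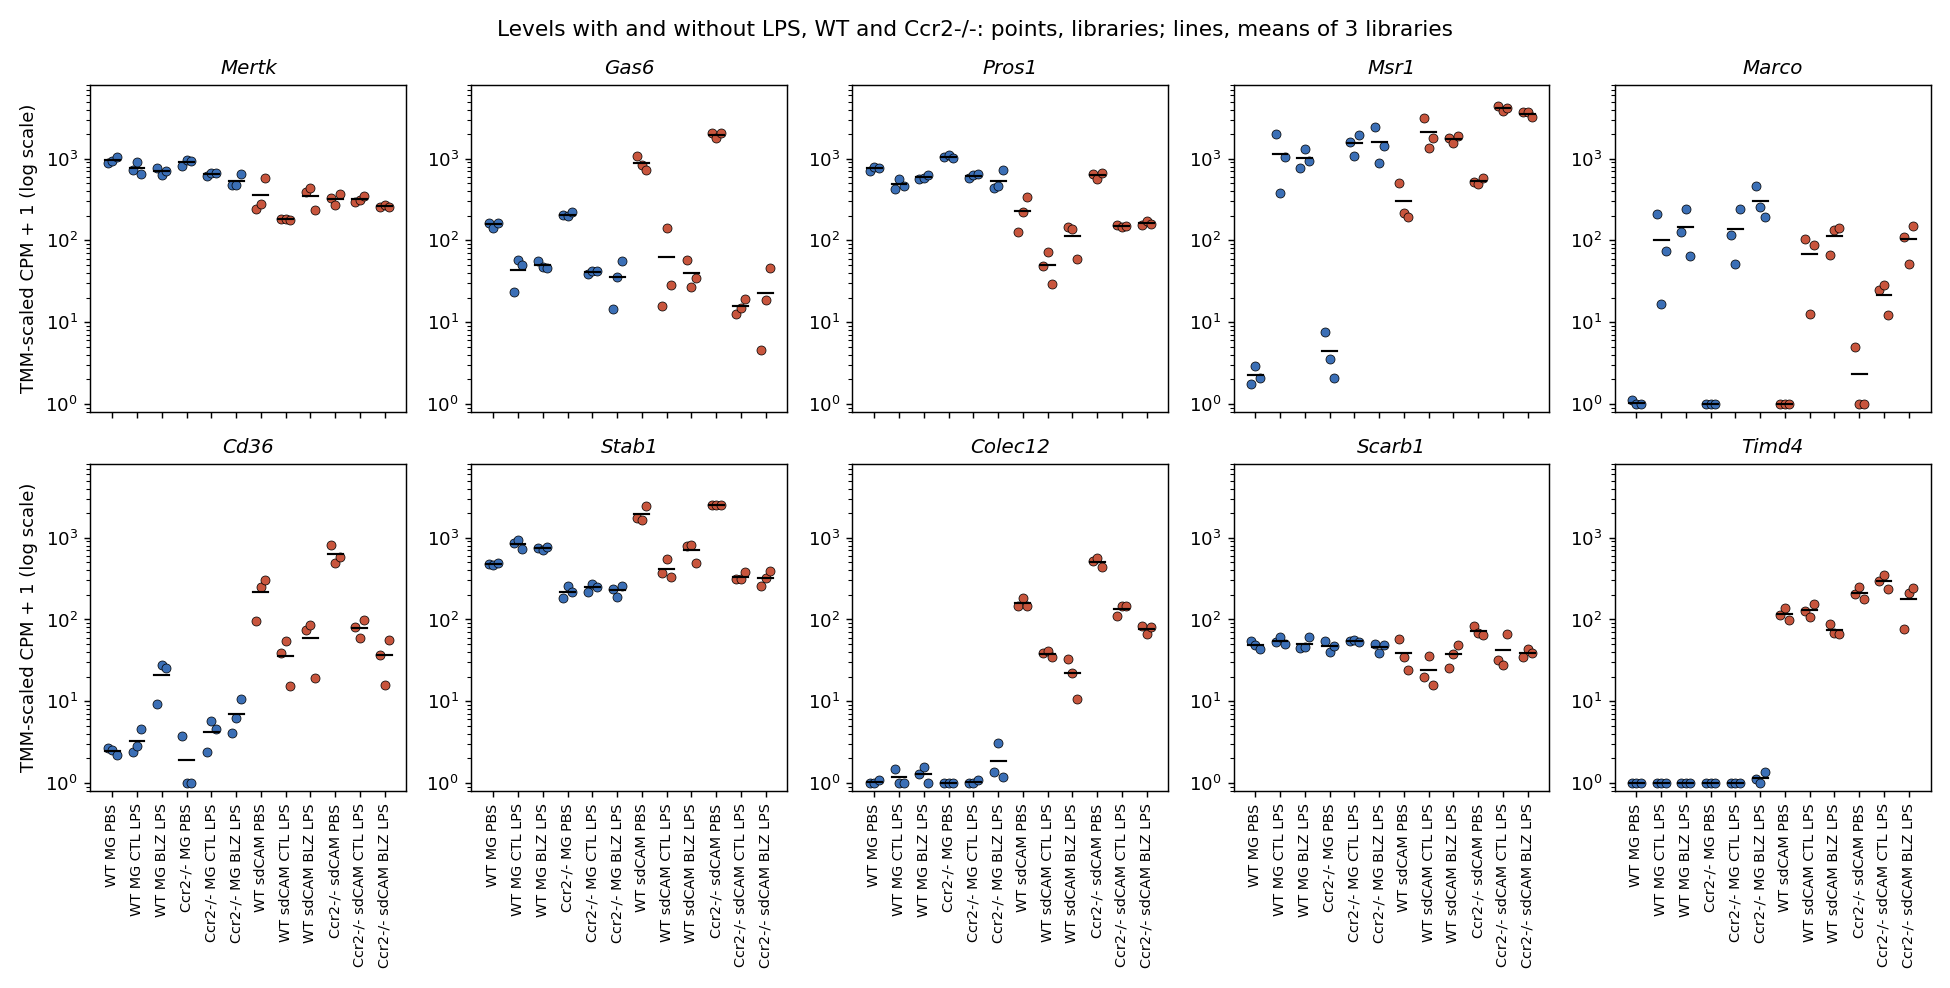
Levels without and with LPS by library in WT and Ccr2-/- mice, in TMM-scaled CPM plus 1 on a log axis; points are libraries of MG (blue) and sdCAMs (red), and black lines are means of 3 libraries. Msr1 and Marco were higher after LPS in MG, and Gas6 was lower after LPS in MG and sdCAMs alike.

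Msr1 was nearly undetected in MG without LPS and abundant with it. WT MG went from 0.744, 1.93 and 1.08 CPM to 2028, 375 and 1044 CPM after LPS, and the lowest LPS library lay within the range of resting WT sdCAMs (log2 fold change 9.83 ± 0.82 SE, adjusted p = 9.81e-05, edgeR). In Ccr2-/- MG the level was 1623, 1077 and 1949 CPM after LPS, against 6.46, 2.57 and 1.1 CPM without it (log2 fold change 8.85 ± 0.68 SE, adjusted p = 1.4e-05, edgeR). Reporter MG, all from mice that had been depleted, went from 6.65, 1.03 and 0.298 to 348, 997 and 957 CPM (log2 fold change 8.12 ± 1.26 SE, adjusted p = 0.0416, edgeR), a call that was lost without any 1 of 4 of the 6 libraries (adjusted p = 0.104 to 0.192). No library with LPS overlapped one without it in any of the 3 sets.

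Marco, which binds bacteria and particles, was found in every MG library after LPS. The levels were 209, 15.4 and 74 CPM in WT, 116, 49.8 and 239.6 CPM in Ccr2-/- and 320.4, 202 and 183 CPM in reporter MG, with a wide spread among the WT libraries. The ratio of LPS to untreated counts was 3100.2 in WT MG (95% counting interval 556 to 122486), and Marco was at least 459-fold higher in Ccr2-/- MG and at least 822-fold higher in reporter MG. Adjusted p-values from edgeR were 0.0047, 0.00198 and 0.00663, the last of which rose to 0.0608 and 0.0583 without mice 1 and 7 of the LPS group.

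Gas6 in WT MG was at 163, 139.9 and 164 CPM without and 22.4, 56.2 and 48.7 CPM with LPS (log2 fold change -1.87 ± 0.27 SE, adjusted p = 0.000421, edgeR), and in Ccr2-/- MG it went from 204, 195 and 219.9 to 37.5, 40.8 and 41.7 CPM (log2 fold change -2.35 ± 0.35 SE, adjusted p = 0.000277, edgeR). The groups did not overlap. Reporter MG had 112, 176 and 118 CPM with PBS and 48.4, 21.1 and 24.8 CPM with LPS, also without overlap, but this did not pass edgeR's test (log2 fold change -2.15 ± 0.49 SE, adjusted p = 0.0997) while DESeq2 called it (-2.09, adjusted p = 0.00111). Pros1 had an adjusted p under the threshold below the fold limit in WT (-0.64, adjusted p = 0.00484) and Ccr2-/- MG (-0.74, adjusted p = 0.00403), as did Stab1 in WT MG (0.83, adjusted p = 0.000553, edgeR). Mertk was at 767 ± 136 CPM in WT MG after LPS, with a log2 fold change of -0.32 (adjusted p = 0.131), and -0.45 (adjusted p = 0.0265) in Ccr2-/- MG by edgeR. Scarb1 was at 53.2, 48.2 and 42.6 CPM without and 52.2, 59.2 and 49.2 CPM with LPS in WT MG.

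In sdCAMs, where all 10 members could be tested, LPS was followed by calls in both directions. In Ccr2-/- sdCAMs 2 of 10 rose (10.9% of genes higher) and 5 fell (10.5% lower), namely Msr1 and Marco against Gas6, Pros1, Cd36, Stab1 and Colec12. In reporter sdCAMs the 2 rises were called again (16.6% higher), and these 5 fell together with Scarb1 and Timd4 (12.3% lower). In WT sdCAMs Marco rose (3.69% higher), and Gas6, Pros1, Cd36 and Colec12 fell (2.7% lower). Mertk was not called in any of the 3. The reporter fit averaged tdT+ and tdT- cells, whose Mertk means moved in opposite directions. With columns as named, Mertk in tdT+ cells was at 139.9 to 275 CPM with PBS and 370 to 478 CPM with LPS, without overlap. In tdT- cells it was at 144 to 269 CPM and 136 to 208 CPM, which overlapped. The change with LPS was not tested in either population alone. The median log2 fold change of the 10 genes was -1.41, -1.37 and -1.38 in WT, Ccr2-/- and reporter sdCAMs, against -0.07, -0.05 and 0.07 over all genes.

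Gas6 had the largest loss. In Ccr2-/- sdCAMs it was at 2060.1, 1806 and 2037 CPM without and 11.7, 13.9 and 18.1 CPM with LPS (log2 fold change -7.08 ± 0.71 SE, adjusted p = 1.65e-05, edgeR). WT sdCAMs went from 1071, 831 and 735 to 14.7, 141 and 27.3 CPM, and the library of mouse 4 kept the highest level (log2 fold change -3.75 ± 0.87 SE, adjusted p = 0.0296, edgeR). Reporter sdCAMs had 39.9, 36.5 and 25.6 CPM (tdT+) and 6.43, 18.5 and 36 CPM (tdT-) after LPS against 1225 to 1591 CPM with PBS (log2 fold change -5.73 ± 0.36 SE, adjusted p = 4.63e-08, edgeR). No LPS library reached a library without LPS in any set, and the mean level after LPS was below that of resting MG in every set, although the WT library of mouse 4 lay within the range of resting MG.

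Pros1 fell from 648, 566 and 659 to 153, 146 and 149 CPM in Ccr2-/- sdCAMs (log2 fold change -2.06 ± 0.14 SE, adjusted p = 2.76e-07, edgeR) and from 125, 221 and 341 to 47.9, 71.1 and 27.9 CPM in WT sdCAMs (log2 fold change -2.09 ± 0.54 SE, adjusted p = 0.0414, edgeR). The libraries did not overlap in either genotype. Mertk, their receptor, was at 328, 269 and 364 CPM and 293, 308 and 348 CPM in Ccr2-/- sdCAMs and overlapped between the groups (log2 fold change -0.02 ± 0.15 SE, adjusted p = 0.94, edgeR; interval -0.31 to 0.27). In WT sdCAMs it was at 182, 182 and 174 CPM after LPS, below all 3 untreated libraries (log2 fold change -0.86 ± 0.54 SE, adjusted p = 0.352, edgeR), and it was called only on library totals without TMM (-2.44, adjusted p = 0.0168). In that fit the median log2 fold change of all genes was -1.55, against -0.07 with TMM.

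Cd36 went from 817, 492 and 581 to 79, 58.1 and 97.3 CPM in Ccr2-/- sdCAMs (log2 fold change -3.02 ± 0.38 SE, adjusted p = 6.94e-05, edgeR), from 94.6, 246 and 305 to 37.4, 53.6 and 14.4 CPM in WT sdCAMs (log2 fold change -2.50 ± 0.67 SE, adjusted p = 0.049, edgeR) and from 323 to 684 CPM down to 2.19 to 36.3 CPM in reporter sdCAMs (log2 fold change -5.35 ± 0.40 SE, adjusted p = 1.95e-07, edgeR). The groups did not overlap in any set. Colec12 fell in the same 3 sets, with 109, 145 and 145 CPM left in Ccr2-/- and 38.1, 39.6 and 33.8 CPM left in WT sdCAMs after LPS (log2 fold change -1.93 ± 0.17 SE, adjusted p = 3.07e-06 and log2 fold change -1.95 ± 0.46 SE, adjusted p = 0.0315, edgeR). In reporter sdCAMs Colec12 was at 0, 3.66 and 45 CPM (tdT+) and 4.82, 11.9 and 33.3 CPM (tdT-) after LPS (log2 fold change -2.50 ± 0.74 SE, adjusted p = 0.0177, edgeR), a call lost without any 1 of 4 of the 12 libraries (adjusted p = 0.0531 to 0.0807) and kept without both doubtful columns (-3.71, adjusted p = 0.00039). With PBS it was at 16.7 to 47.1 CPM in tdT+ cells, which overlapped the LPS libraries. The tdT- cells were at 255 to 356 CPM with PBS, without overlap. Stab1, which can bind dying cells directly, went from 2502, 2495 and 2534 to 308, 315 and 377 CPM in Ccr2-/- sdCAMs (log2 fold change -2.91 ± 0.17 SE, adjusted p = 8.31e-08, edgeR), next to the 219, 269.7 and 250.2 CPM of MG after LPS. In WT sdCAMs Stab1 went from 1759.9, 1666 and 2444 to 374, 549 and 325 CPM without overlap, which did not pass edgeR's test (log2 fold change -2.09 ± 0.78 SE, adjusted p = 0.122) but did pass DESeq2 (-2.08, adjusted p = 4.34e-05), edgeR with the IEG mark as a covariate (-1.91, adjusted p = 0.0196) and edgeR on library totals (-3.64, adjusted p = 0.00185). In reporter tdT+ cells Stab1 was at 1256 to 1413 CPM with PBS and 456 to 1260 CPM with LPS, which overlapped. The tdT- cells were at 1637 to 2549 CPM and 439 to 525 CPM, without overlap.

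Msr1, already high in resting sdCAMs, reached 4436, 3837 and 4130.0 CPM in Ccr2-/- sdCAMs after LPS (log2 fold change 2.96 ± 0.13 SE, adjusted p = 1.1e-08, edgeR). It was at 3173, 1368 and 1798 CPM in WT sdCAMs, above all untreated libraries (log2 fold change 2.91 ± 0.93 SE, adjusted p = 0.0805, edgeR), and this was called by DESeq2 (2.92, adjusted p = 5.72e-06), with no low-count filter (2.90, adjusted p = 0.0244) and with the IEG mark as a covariate (2.77, adjusted p = 0.00972). Reporter sdCAMs after LPS were at 1418, 944 and 1477 CPM (tdT+) and 2282, 1893 and 2381 CPM (tdT-), all above the PBS libraries (log2 fold change 1.93 ± 0.21 SE, adjusted p = 6.54e-06, edgeR). Marco was at 23.6, 27.3 and 11.2 CPM in Ccr2-/- sdCAMs (log2 fold change 3.91 ± 0.92 SE, adjusted p = 0.00644, edgeR; adjusted p = 0.0505 by DESeq2), and it was at least 54.5-fold higher in WT and at least 229-fold higher in reporter sdCAMs. The tdT+ library of mouse 1 was the only sdCAM library with LPS in which Marco was at 0.

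Timd4 did not pass edgeR's test with LPS in WT or Ccr2-/- sdCAMs. It was at 113, 138 and 98.8 CPM without and 127, 106 and 156 CPM with LPS in WT sdCAMs (log2 fold change 0.28, adjusted p = 0.687, interval -0.46 to 1.02) and at 203, 252 and 178 and 295, 349 and 233 CPM in Ccr2-/- sdCAMs (0.47, adjusted p = 0.336, interval -0.18 to 1.13), with overlap in both. In repopulated reporter sdCAMs it fell (log2 fold change -1.37 ± 0.37 SE, adjusted p = 0.0102, edgeR), with tdT- cells going from 197, 243 and 161 to 17.7, 58.1 and 68.5 CPM and tdT+ cells from 28.7, 38.4 and 15.4 to 17.9, 7.33 and 26.8 CPM. Scarb1 fell there too (log2 fold change -1.02 ± 0.27 SE, adjusted p = 0.00867, edgeR), although this lay at the fold limit and was lost when the doubtful columns were left out (-0.96, adjusted p = 0.0329) or exchanged (-0.88, adjusted p = 0.0918), without any 1 of 4 of the 12 libraries (log2 fold change -0.99 to -0.89), or when counts were summed per mouse (-0.84, adjusted p = 0.0514). Without the doubtful columns the other reporter calls were kept in the same direction, with Gas6 at -5.45 (adjusted p = 5.28e-07), Cd36 at -5.73 (adjusted p = 6.74e-06), Msr1 at 1.84 (adjusted p = 7.72e-05) and Timd4 at -1.43 (adjusted p = 0.00754) by edgeR. Ccr2-/- sdCAMs had Scarb1 at 82.1, 67.1 and 63.9 CPM without and 31.2, 26.3 and 64.6 CPM with LPS (-0.81, adjusted p = 0.0651 by edgeR).

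The WT sdCAM calls depended on single libraries. With 1 of the 6 libraries compared left out, Marco stayed called in each fit and Gas6 only without CTL mouse 4, and the lost calls of Gas6, Pros1, Cd36 and Colec12 had adjusted p-values of 0.0523 to 0.161 by edgeR, with the sign kept. Neutrophil marker sums also differed between these libraries, at 3290, 359 and 638 CPM in mice 1, 4 and 6 after LPS against 1.31 to 94.6 CPM in untreated mice, with Ly6g and Retnlg at 0 in all of them. Choroid plexus epithelium markers were at 1891, 492 and 13.8 CPM against 1.62 to 146 CPM in untreated mice, and the part of these in the results was not tested. In Ccr2-/- sdCAMs, where the same members fell, the neutrophil sum was 61.1 to 96.6 CPM after LPS against 1.40 to 3.03 CPM, again with Ly6g and Retnlg at 0. The choroid plexus sum there was 0.368 to 2.22 against 0.566 to 12.9 CPM, and the astrocyte sum of 4 markers was 129 to 174 against 31.4 to 44.7 CPM. Microglial marker sums in sdCAMs were 10.9% to 18% of MG after LPS against 17.6% to 36.2% without it in WT, and 8.64% to 11.9% against 10.9% to 15.1% in Ccr2-/- mice.

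**Figure D3:**
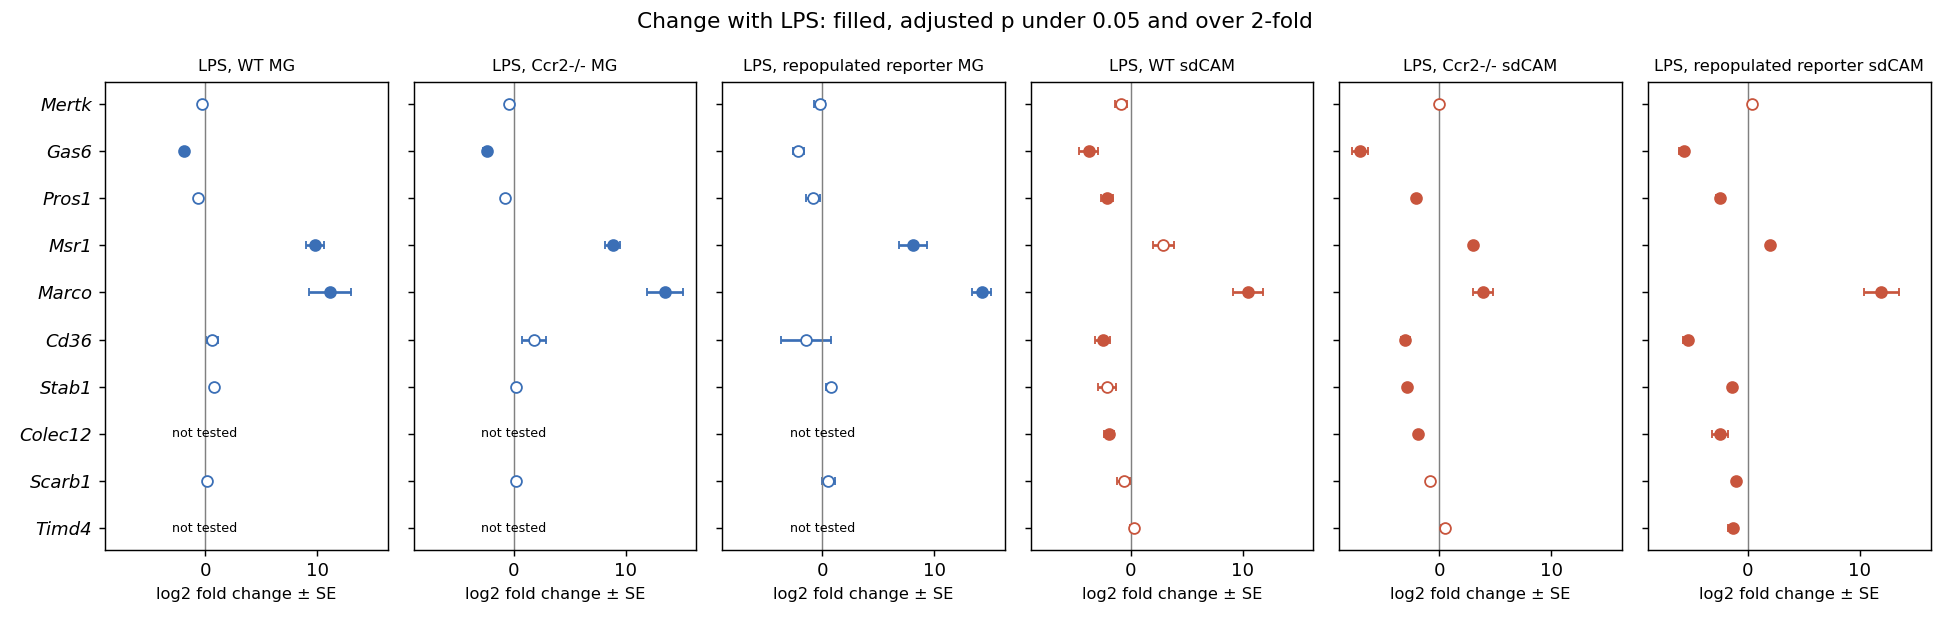
Log2 fold change with LPS of each member in MG and sdCAMs of WT, Ccr2-/- and reporter mice, with bars of 1 SE on a linear axis; filled symbols are calls and open symbols are not, and Colec12 and Timd4 were not tested in MG. Gas6 lay below 0 and Msr1 and Marco above 0 in all 6 comparisons, and fitted values of Marco against libraries at 0 have no true size.

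Whether the LPS change differed between the cell types was tested by an interaction term, the change in sdCAMs minus that in MG. A negative value means a smaller rise or a larger fall in sdCAMs, or a fall in sdCAMs beside a rise in MG. In WT mice 2 of 10 members were called lower, Msr1 and Stab1, against 0.944% of all genes, and none higher, against 0.518%. Msr1 differed by -7.01 (adjusted p = 0.000164), with resting levels near 0 in MG and from 195 to 502 CPM in sdCAMs. Stab1 differed by -3.01 (adjusted p = 0.000983) by edgeR, with WT MG going from 477 ± 12.7 to 845 ± 113 CPM and sdCAMs from 1957 ± 425 to 416 ± 118 CPM. In Ccr2-/- mice 6 of 10 were called lower (4.03% of all genes) and 0 higher (2.89%): Gas6 (-4.69, adjusted p = 0.00136), Pros1 (-1.29, adjusted p = 0.000576), Msr1 (-5.85, adjusted p = 2.63e-06), Cd36 (-4.79, adjusted p = 0.0104), Stab1 (-3.09, adjusted p = 8.04e-08) and Marco (-9.48, adjusted p = 0.049), by edgeR. The size of Cd36's term rested on the 28 counts of MG mouse 1m, since the other untreated Ccr2-/- MG libraries were at 0. Without that library the term was -10.99 (adjusted p = 0.000252) and the LPS change in MG itself was called (8.15, adjusted p = 0.0012, edgeR). Both values were then fitted against untreated MG libraries at 0 and have no true size. Cd36 in Ccr2-/- MG was at only 1.38 to 4.73 CPM after LPS. Marco's term rested on the 38 counts of 1 untreated Ccr2-/- sdCAM library (mouse 1m), without which it was -2.74 (adjusted p = 1). The term was also lost without any 1 of 8 other libraries of the 12 (adjusted p = 0.0784 to 0.11, edgeR).

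After LPS the order of levels per kb of exon had changed. In WT MG it was Msr1 (181 CPM per kb), Mertk (177), Pros1 (118), Stab1 (82.1), Marco (51.7) and Gas6 (16.7), in which the libraries of Msr1 overlapped those of Mertk, Pros1, Stab1 and Marco. In Ccr2-/- sdCAMs it was Msr1 (652 CPM per kb), Timd4 (135), Mertk (72.9), Pros1 (36.6), Stab1 (32.4), Cd36 (21.8), Colec12 (15.2), Marco (10.7), Gas6 (5.73) and Scarb1 (4.79). Gas6, at the head of the order in resting sdCAMs, overlapped Scarb1 at the end of it here, while Msr1 and Timd4 overlapped no other member.

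Cells that had repopulated after BLZ945 were compared with never depleted cells, both after LPS, a comparison that shares its CTL libraries with the LPS comparisons above. In WT MG 1 of 8 members was higher (0.0594% of genes) and none lower (0.0254%). Cd36 was at 1.41, 1.8 and 3.6 CPM after CTL and 8.32, 26.4 and 24.1 CPM after BLZ945 (log2 fold change 3.12 ± 0.48 SE, adjusted p = 0.0432, edgeR), with no overlap. The call was lost without CTL mouse 6 (3.62, adjusted p = 0.164), BLZ945 mouse 11 (2.84, adjusted p = 0.219) or BLZ945 mouse 12 (2.94, adjusted p = 0.223). In Ccr2-/- MG Cd36 was at 1.38, 4.73 and 3.56 CPM after CTL and 3.09, 5.16 and 9.68 CPM after BLZ945, which overlapped (0.89, adjusted p = 0.928 by edgeR).

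In the other BLZ945 comparisons edgeR called 0 members. In WT sdCAMs, where 0% of genes were called either way, 2 members had an unadjusted p under 0.05 and DESeq2 called 0. In Ccr2-/- MG (0.00865% of genes called higher and 0.00865% lower) no member had an unadjusted p under 0.05 and DESeq2 called 0, and in Ccr2-/- sdCAMs (0% higher and 0.00837% lower) the counts were 4 and 0. Msr1 was at 4436, 3837 and 4130.0 CPM after CTL and 3762, 3715 and 3213 CPM after BLZ945 in Ccr2-/- sdCAMs (log2 fold change -0.24, adjusted p = 0.625), and Marco was at 23.6, 27.3 and 11.2 and 109.8, 50.2 and 149 CPM (2.28, adjusted p = 0.482, interval 0.76 to 3.81). Timd4 in WT sdCAMs was at 127, 106 and 156 CPM after CTL and 87.9, 68 and 66.2 CPM after BLZ945, without overlap but also without a call (-0.89, adjusted p = 0.677 by edgeR, interval -1.63 to -0.14). These 2 WT groups also differed in Saa3, which held 23.0% to 35.8% of counts after CTL and 2.39%, 1.79% and 21.0% in mice 8, 11 and 12 after BLZ945. Neutrophil markers were at 359 to 3290 CPM after CTL and 58.4, 25.7 and 992 CPM in those mice, with Ly6g and Retnlg at 0 in both groups. Choroid plexus epithelium markers were at 13.8 to 1891 CPM after CTL and 0.459 to 7.47 CPM after BLZ945, and the part of these in the values was not tested. Mice 8 and 11 lacked the IEG mark that the other 4 libraries carried, so the mark and the treatment cannot be fully told apart. On library totals without TMM, Mertk, Pros1 and Cd36 were called higher after BLZ945, in a fit whose median over all genes was 1.41.

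Among repopulated sdCAMs given PBS, the tdT+ and tdT- populations differed most in Timd4 and Colec12. Timd4 was at 28.7, 38.4 and 15.4 CPM in tdT+ and 197, 243 and 161 CPM in tdT- sdCAMs of mice 174, 175 and 177, lower in tdT+ cells of all 3 mice and without overlap. Colec12 was at 47.1, 19.9 and 16.7 CPM in tdT+ and 255, 356 and 305 CPM in tdT- sdCAMs, again lower in all 3 mice. In the fit of all 12 reporter sdCAM libraries neither was called (Timd4 -2.87, adjusted p = 0.122, Colec12 -3.46, adjusted p = 0.754, edgeR), and 0 of 10 members were called in either direction, against 0% of genes higher and 0.0236% lower. Of the members 2 had an unadjusted p under 0.05, and DESeq2 called 1, Timd4 (-2.84, adjusted p = 0.0002). A fit of the 6 PBS libraries alone, chosen after seeing the data, called both (Timd4 -2.87, adjusted p = 0.0235, and Colec12 -3.46, adjusted p = 0.0192, edgeR).

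**Figure D4:**
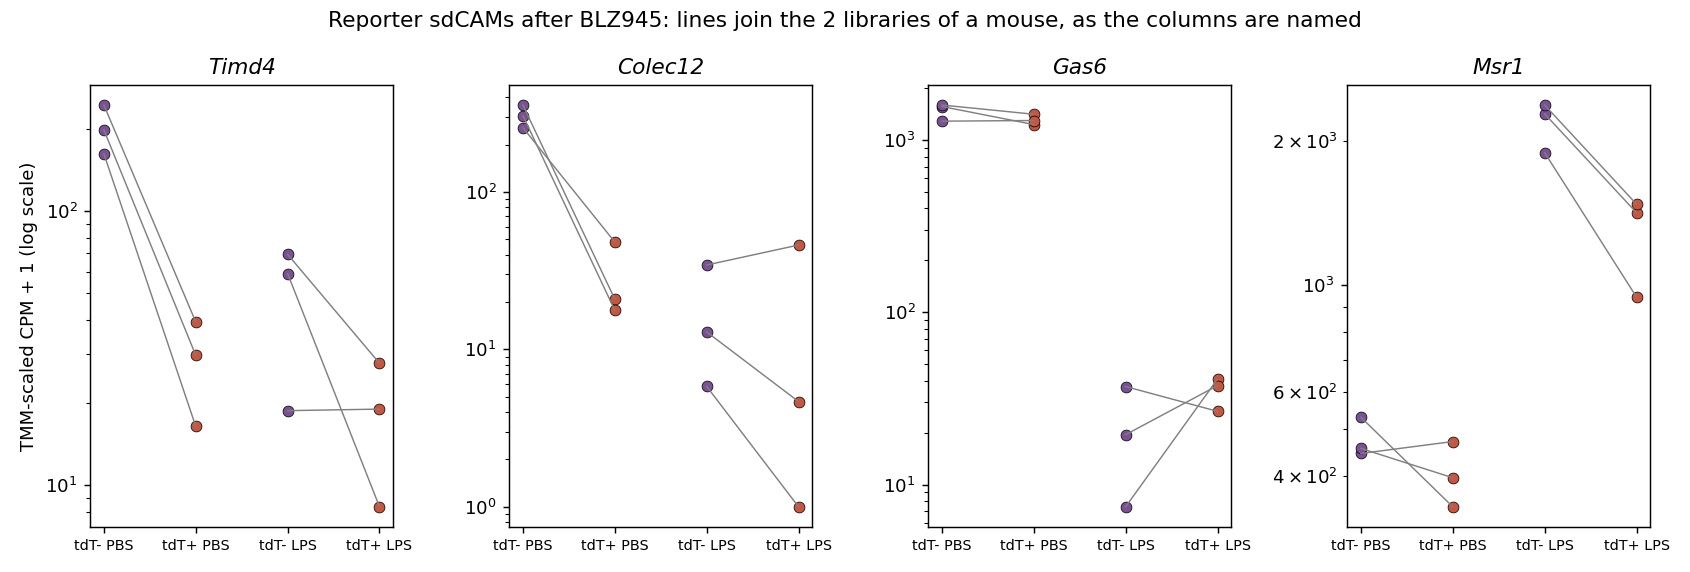
Levels of Timd4, Colec12, Gas6 and Msr1 in tdT- and tdT+ sdCAMs of reporter mice given PBS or LPS, in TMM-scaled CPM plus 1 on a log axis; lines join the libraries of a mouse as the columns are named. With PBS all 3 mice had less Timd4 and Colec12 in tdT+ than in tdT- cells, and after LPS Colec12 and Gas6 differed in direction among the mice, while Timd4 was lower in tdT+ cells of mice 5 and 7 and at about the same level in both populations of mouse 1.

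The other members were closer between the populations with PBS. Gas6 was at 1225, 1406 and 1293 CPM in tdT+ and 1559, 1591 and 1282 CPM in tdT- sdCAMs (-0.18, adjusted p = 1, interval -1.0 to 0.64, edgeR), and Mertk at 167, 275 and 139.9 and 144, 269 and 234 CPM (-0.16, adjusted p = 1, interval -0.81 to 0.49). Msr1 overlapped as well (-0.25, adjusted p = 1, interval -0.82 to 0.32). Stab1 was at 1380.5, 1413 and 1256 CPM in tdT+ and 1637, 2187 and 2549 CPM in tdT- sdCAMs and did not overlap, yet was not called (-0.66, adjusted p = 1, interval -1.35 to 0.03, edgeR). Cd36 had the reverse order, at 444, 684 and 432 CPM in tdT+ and 340.0, 426 and 323 CPM in tdT- cells, also without overlap or call (0.51, adjusted p = 1, interval -0.40 to 1.42, edgeR). Microglial markers in these libraries were 9.46% to 13.3% of MG in tdT+ and 12.2% to 18.4% in tdT- sdCAMs.

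After LPS, with columns as named, 4 of 10 members were higher in tdT+ sdCAMs (3.8% of genes) and none lower (7.02%). Mertk was at 370.2, 478 and 453 CPM in tdT+ and 136, 146 and 208 CPM in tdT- sdCAMs of mice 1, 5 and 7 (log2 fold change 1.42 ± 0.34 SE, adjusted p = 0.0123, edgeR). Pros1 was at 84.7, 369 and 119 and 23.8, 52 and 44.9 CPM (log2 fold change 2.25 ± 0.48 SE, adjusted p = 0.00589, edgeR), with the tdT+ library of mouse 5 far above the rest, the library whose microglial markers were at 84.2% of MG. Cd36 (2.09, adjusted p = 0.0181) and Scarb1 (1.36, adjusted p = 0.0341) were the other calls. After exchange of the doubtful columns edgeR called none of them (Mertk 0.28, adjusted p = 0.996, and Pros1 1.15, adjusted p = 0.867), nor did the fit of the 6 LPS libraries alone. As named, Saa3 held 14.5%, 28.3% and 17.8% of counts in tdT- and 2.14%, 0.680% and 2.74% in tdT+ sdCAMs of mice 1, 5 and 7. The doubtful columns thus lay with the population they name in Saa3. They did so in neutrophil markers too (2233 CPM in tdT- of mouse 1 and 29 CPM in tdT+ of mouse 7). Timd4 and Colec12, both lower in tdT+ cells with PBS, placed them differently. The tdT- column of mouse 1 was the lowest of its population (17.7 and 4.82 CPM). The tdT+ column of mouse 7 was the highest of its population (26.8 and 45 CPM). Saa3 also varied within a group, from 1.79% to 21.0% in WT sdCAMs after BLZ945 and LPS. These genes therefore do not settle which names are right. Without the tdT+ library of mouse 5, Scarb1 lost its call (1.25, adjusted p = 0.0915, edgeR) and Stab1 gained one (1.23, adjusted p = 0.0078). Scarb1 was also lost without tdT- mouse 1, tdT- mouse 5 or tdT+ mouse 7 (adjusted p = 0.0645 to 0.08, edgeR), and Cd36 was lost without tdT+ mouse 1 (1.57, adjusted p = 0.0844) or tdT- mouse 5 (1.69, adjusted p = 0.0592). With both columns left out, Mertk (1.28, adjusted p = 0.0968) and Scarb1 (1.31, adjusted p = 0.129) lost their calls at folds close to those above. Pros1 (2.24, adjusted p = 0.029) and Cd36 (2.77, adjusted p = 0.0255) stayed called, and Colec12 (-3.28, adjusted p = 0.0369) and Timd4 (-2.36, adjusted p = 0.02) were called lower in tdT+ cells. Neutrophil marker sums were 571 to 2233 CPM in tdT- and 8.31 to 47.2 CPM in tdT+ sdCAMs after LPS, whose part in the result was not tested. Of the markers summed, Ly6g, Retnlg and Ngp were at 0 in all of these libraries, so the sums came from the other markers of the list.

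The other genes of the pathway were taken from lists by role that hold 50 genes in all. In sdCAMs against MG without LPS, 6 of 43 tested were higher and 7 lower in WT (11.9% and 5.27% of all genes), and 6 of 44 higher and 9 lower in Ccr2-/- mice (8.48% and 6.38%), with medians of -0.31 and 0.03. The scavenger receptor of haemoglobin Cd163 (log2 fold change 10.96 in WT and 10.34 in Ccr2-/-), the TAM receptor Axl (2.67 and 3.85) and the complement opsonin genes C4b (5.45 and 8.40) and C3 (3.15 and 4.56) were higher in both by edgeR. Lower in both were the integrin gene Itgb5 (-2.08 and -1.85), the engulfment adaptor gene Elmo1 (-1.48 and -1.80), Havcr2, which encodes TIM-3 (-1.91 and -3.20), and the protease gene Adam10 (-1.43 and -1.30).

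With LPS, 5 of 39 pathway genes rose and 3 fell in WT MG (8.97% and 7.6% of all genes), and 5 rose and 6 fell in Ccr2-/- MG (10.5% and 8.91%). The share that fell in WT was near that of all genes. The phosphatidylserine receptor Cd300lf (7.59 and 8.29), C4b (3.36 and 3.44), the mitochondrial carrier Ucp2 (1.93 and 2.10) and the scavenger receptor Cxcl16 (1.38 and 2.05) rose in both genotypes, and the lipid receptor Trem2 (-1.70 and -1.86), Cd300a (-2.14 and -2.20) and Elmo1 (-1.07 and -1.30) fell. In sdCAMs 6 of 40 rose and 3 fell in WT (3.69% and 2.7% of all genes), and 7 of 41 rose and 12 fell in Ccr2-/- mice (10.9% and 10.5%). C3 (4.17 and 4.18), Cd300lf (5.98 and 7.33), the GTPase gene Rac2 (2.35 and 1.91) and Nr1h3, which encodes the sterol receptor LXR-alpha (4.85 and 3.23), rose in both genotypes. The engulfment genes Dock2 (-2.54 and -1.35), Elmo1 (-1.89 and -2.18) and Lrp1 (-2.25 and -1.23) fell in both. By the interaction term Rac2 changed more towards higher levels in sdCAMs than in MG (2.00 and 1.79), and C4b (-5.28 and -4.82) and the cholesterol exporter Abca1 (-2.85 and -1.74) towards lower.

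The 3 genes whose group means were most alike to each member over the 18 groups, by Pearson's r of log2(CPM + 1) among 10910 genes, are given as a description, as the groups share mice and depth and the values carry no p. Timd4 was most like C2, Cd163 and Colec12 (r = 0.98, 0.97 and 0.97), and Colec12 most like Timd4, Nlrc4 and Fcna (0.97, 0.96 and 0.96). Pros1 was most like Daglb, Csf1r and Pacc1 (0.99, 0.98 and 0.97), and Mertk most like Fam91a1, Edem1 and Sowahc (0.96, 0.94 and 0.94). Marco was most like Cd300lf, Il1r2 and Adamtsl4 (all 0.97), and Msr1 most like Ehd1, Ifi204 and Ms4a6b (0.99, 0.97 and 0.96). Gas6 was most like Ehd4, Pigz and Cenpa (0.96, 0.96 and 0.95), Cd36 most like Bcar3, Dnase1l1 and Kmo (0.96, 0.94 and 0.93), Stab1 most like Bltp2, Etl4 and Lrp6 (0.91, 0.90 and 0.89), and Scarb1 most like Mad1l1, Pcyt1a and Pot1a (0.88, 0.87 and 0.87).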

How the data were processed

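Total RNA of sorted cells was extracted and, per the study's methods, amplified from picogram amounts, and Nextera XT libraries were sequenced as single reads without molecular identifiers, so intervals and floors cover counting error only. The authors aligned reads with STAR 2.7.11a and counted them with featureCounts 2.0.8, per the submitters' processing notes. The deposited values were raw whole-number counts per gene symbol, not normalized, in 3 tables of 18 columns, and 0 columns were unmatched. The strand setting was not given in the sources used here, so small overlaps of Gas6 with Tmem255b (34 bases) and of Stab1 with Nt5dc2 (112 bases) on the opposite strand are uncertain. For Ccr2-/- libraries with LPS, titles disagreed with the cell type characteristic and library name, which were followed.

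Each comparison was a two-sided edgeR 4.0.16 quasi-likelihood test in R 4.3.3 (filterByExpr, TMM, robust fit) with Benjamini-Hochberg adjustment over all genes tested, over 9 libraries of a cell type for LPS and BLZ945, 18 of a genotype for cell types, 12 reporter sdCAM libraries for tdT and 6 reporter MG libraries. Reporter sdCAM comparisons averaged tdT+ and tdT- groups. Levels are CPM on TMM-scaled totals over all 54 libraries, and 3 counts per library served as the floor, between 0.230 and 3.50 CPM. Scripts were tested on simulated data. DESeq2 1.42.0, its size factors, no filter, no fold limit, library totals, the IEG mark, the exchange or omission of the doubtful columns, sums per mouse, a mouse block and leaving out each library were tried as alternatives. MG and sdCAMs, and tdT+ and tdT- cells, of one number came from the same mouse, and deviations from group means of such libraries correlated at -0.02 to 0.16. The members, the pathway lists and the marker lists were chosen with earlier results of these data known. All members were named, and other pathway genes were named where called alike in both genotypes, at most 4 per direction by adjusted p. Promoters were those of RefSeq for GRCm38.p6, and exon lengths were unions of GENCODE exons for GRCm38.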

Additional observations from a re-analysis of the deposited data

Results flagged for a closer look

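Under the interaction term, the LPS change differed between MG and sdCAMs for 8 results, each flagged because the difference itself passed edgeR's test. In WT mice these were Msr1 (-7.01) and Stab1 (-3.01), and in Ccr2-/- mice Gas6 (-4.69), Pros1 (-1.29), Msr1 (-5.85), Marco (-9.48), Cd36 (-4.79) and Stab1 (-3.09), all on the log2 scale as the change in sdCAMs minus that in MG. Msr1 and Stab1 were flagged in both genotypes. The value for Marco compares libraries mostly at 0 without LPS and has no true size, and it rested on 1 untreated Ccr2-/- sdCAM library, that of mouse 1m. The size of the Cd36 value rested on MG mouse 1m, the only untreated Ccr2-/- MG library with counts. Without it the value was -10.99, fitted against MG libraries at 0 and so without a true size.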

How the results depend on the processing

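Of 64 member calls over all comparisons and 919 alternatives of them, 836 kept the call, 83 lost it and 0 changed sign, and 50 calls were gained by members not called before. With the mouse as a replicate block, Scarb1 in tdT+ against tdT- sdCAMs after LPS lost its call (1.37, adjusted p = 0.0528, edgeR), and the block changed no other member's call. The number of members called moved by more than 1.5 times as follows. Without the fold limit it was 5 for LPS in WT MG and 5 in Ccr2-/- MG. Without the low-count filter it was 2 for BLZ945 in Ccr2-/- sdCAMs, 2 for tdT+ against tdT- with PBS and 4 for cell type by LPS in WT. On library totals without TMM it was 3 for BLZ945 in WT sdCAMs and 8 for cell type by LPS in WT, in fits that moved the median log2 fold change of all genes by 1.34 and -1.47. For tdT+ against tdT- with PBS it was 1 by DESeq2 and 2 in the fit of 6 libraries, and with LPS it was 0 in the fit of 6 libraries, 0 after the exchange of the doubtful columns and 0 after the exchange with the block. With 1 library left out, the number was 1 to 2 for LPS in WT sdCAMs, 0 to 2 for LPS in reporter MG, 0 to 1 for BLZ945 in WT MG and 2 to 5 for tdT+ against tdT- with LPS. Causes were not tested. The floor of 3 counts stood for 3.50 CPM at most, in a WT sdCAM library after CTL and LPS with a low TMM factor, and levels under a library's floor were not detectable.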
